A study of Homo sapiens with 4 samples.

Results

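The Hippo pathway and the target genes of its effectors were followed through RNA sequencing of A549 and 293T cells with and without 2 h in a magnetic field. The set held 34 genes, 25 of them pathway components and 9 of them transcriptional targets of YAP and TEAD, out of 26348 genes listed. They were chosen by name as known members of the pathway, with earlier results of these data known, and all 34 were listed. The pathway annotation in the deposited table assigns 157 genes to Hippo signalling, and 20 of the members are among them, 19 components and 1 target. A549 is a line of non-small cell lung cancer, and 293T is a human embryonic kidney line, labelled renal epithelial, that carries the SV40 large T antigen. The groups were exposed A549, control A549, exposed 293T and control 293T, each with 3 libraries, and exposed cells had been in the field for 2 h while controls had no field. How strong the field was, what produced it, and the density and temperature of the cultures are not given in the sources used here. It is not stated whether the 3 libraries per group are from separate cultures, so the p-values speak only to the spread among these libraries, which could be technical.

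The Hippo pathway restrains growth in response to cell contact, cell shape and mechanical load. Merlin (NF2), KIBRA (WWC1) and FRMD6 at the cell cortex activate the kinases MST1 and MST2, encoded by STK4 and STK3, which with the scaffold SAV1 and the co-activators MOB1A and MOB1B activate LATS1 and LATS2. The LATS kinases phosphorylate the co-activators YAP (YAP1) and TAZ (WWTR1) and keep them out of the nucleus, where they would otherwise bind TEAD factors and induce genes such as CCN1, CCN2 and ANKRD1. Several inhibitors of YAP are themselves induced by it, which closes a negative feedback loop. Phosphorylation and localisation act on proteins and are not measured by RNA sequencing.

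Whole counts recovered from the deposited values gave 37172731 to 38885129 fragments per library. The labelled lines carried their markers, apart from the lung lineage markers given below. The 8 A549 markers, aldo-keto reductases, aldehyde dehydrogenases and keratins, summed to 5421 to 5527 FPKM (fragments counted per gene length and library total) in exposed A549 and 5318 to 5443 FPKM in control A549, against 8.45 to 12.1 FPKM in exposed 293T and 7.56 to 8.34 FPKM in control 293T. The 6 markers of 293T summed to 16.6 to 17.2 FPKM in exposed A549 and 16.3 to 17.1 FPKM in control A549, against 112 to 123 FPKM in exposed 293T and 109 to 113 FPKM in control 293T. The lung lineage markers SFTPC and NKX2-1 summed to at most 0.0385 FPKM in any A549 library, so these defining markers were at or near 0 there. Their sum was higher in 293T, at 0.725 to 0.911 FPKM in exposed and 0.882 to 1.00 FPKM in control libraries. PTPRC, a blood cell marker, and PECAM1, an endothelial marker, stayed at or below 0.0110 FPKM in every library, and COL1A1, a fibroblast marker, lay between 1.59 and 3.33 FPKM. COL1A1 was at 1.99 to 3.33 FPKM in exposed A549 and 1.59 to 1.84 FPKM in control A549, and its part in the results was not tested. The 13 mitochondrially encoded genes took 19.4 to 20.2% of the summed FPKM in exposed A549 and 21.3 to 22.9% in control A549, and 12.6 to 12.8% in exposed 293T and 14.0 to 14.9% in control 293T. FPKM are relative to the total of a library, so a lower mitochondrial share leaves more of the total to other genes. After rescaling without these genes, WWC2 in A549 (log2 fold change 0.11, limma adjusted p = 0.0919) and SAV1 (0.12, adjusted p = 0.0527), LATS1 (0.17, adjusted p = 0.0602), AJUBA (0.15, adjusted p = 0.0648) and LIMD1 (0.09, adjusted p = 0.0907) in 293T no longer passed the threshold. Newly past it, and lower in exposed cells, were TEAD4 in A549 (-0.14, adjusted p = 0.0387) and WWC1 (-0.14, adjusted p = 0.0275) and CRIM1 (-0.12, adjusted p = 0.0287) in 293T. In bulk RNA, fewer cells of a kind and less RNA per cell cannot be told apart.

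TEAD factors bind the hexamer GGAATG, written CATTCC on the opposite strand. The 250 bases upstream of the annotated start are shown for the targets CCN2 and ANKRD1 and for the scaffolds AMOTL2 and AJUBA, which are also known as targets, the members with a promoter entry that moved most in A549 with exposure. They come from RefSeq on GRCh38.p14, each is read 5′ to 3′ on the minus strand of its chromosome, which is the strand of the gene, and capitals mark the hexamer on either strand. The windows are chr6:131951373-131951622 for CCN2, chr10:90921088-90921337 for ANKRD1, chr3:134374448-134374697 for AMOTL2 and chr14:22976843-22977092 for AJUBA.
CCN2: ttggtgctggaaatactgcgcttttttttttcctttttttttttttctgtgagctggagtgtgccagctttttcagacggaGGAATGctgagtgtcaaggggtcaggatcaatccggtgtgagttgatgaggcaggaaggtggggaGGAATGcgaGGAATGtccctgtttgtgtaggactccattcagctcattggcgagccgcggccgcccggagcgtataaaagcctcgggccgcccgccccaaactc
ANKRD1: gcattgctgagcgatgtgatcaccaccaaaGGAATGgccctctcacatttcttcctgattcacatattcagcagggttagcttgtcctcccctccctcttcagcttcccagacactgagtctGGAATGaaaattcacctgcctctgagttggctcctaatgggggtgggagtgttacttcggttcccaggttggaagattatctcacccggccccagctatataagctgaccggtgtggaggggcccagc
AMOTL2: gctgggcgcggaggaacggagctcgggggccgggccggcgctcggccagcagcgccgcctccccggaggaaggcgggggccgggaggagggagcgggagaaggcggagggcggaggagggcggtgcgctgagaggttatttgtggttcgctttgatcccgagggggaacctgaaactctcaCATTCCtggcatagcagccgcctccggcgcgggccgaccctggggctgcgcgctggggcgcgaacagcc
AJUBA: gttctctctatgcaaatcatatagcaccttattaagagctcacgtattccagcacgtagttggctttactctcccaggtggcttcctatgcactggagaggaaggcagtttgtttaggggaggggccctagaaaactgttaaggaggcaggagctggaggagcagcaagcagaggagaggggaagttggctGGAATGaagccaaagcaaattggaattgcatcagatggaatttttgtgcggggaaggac

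The CCN2 window held 3 hexamers, starting at -169, -104 and -95 counted from the transcript start. ANKRD1 held 2, starting at -220 and -128, AMOTL2 held 1 on the opposite strand at -69, and AJUBA held 1 at -59. AMOTL2 and AJUBA have 2 annotated starts each, and the window shown is the one with a hexamer. In both genes it lies inside the annotated gene, before an internal start, and the window of the start further upstream held no hexamer. Which start is used in these cells was not tested. ANKRD1 also held an AP-1 motif, TGANTCA, at -195 and a heat shock motif, GAANNTTC, at -123, whose letters share 1 base with the nearer hexamer. Promoter entries were found for 27 of the 34 members, with 39 start sites. CCN1, LIMD1, STK3, TEAD1, TEAD4, CRIM1 and ARHGEF17 had none, so their promoters were not searched for any motif. Searched on either strand, the hexamer was in a window of 9 members, which were CCN2, ANKRD1, AMOTL2, AJUBA, AXL, PTPN14, WTIP, WWC2 and YAP1, each in 1 of its windows. It was in 11.9% of 35116 windows of that length over all genes. The AP-1 motif was in a window of 4 members and in 6.57% of all windows, the heat shock motif in 3 members and in 5.78% of all windows, and the SRF CArG motif in 0 members and in 1.16% of all windows. A match is a run of letters and does not show that a factor binds there.

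**Figure D1:**
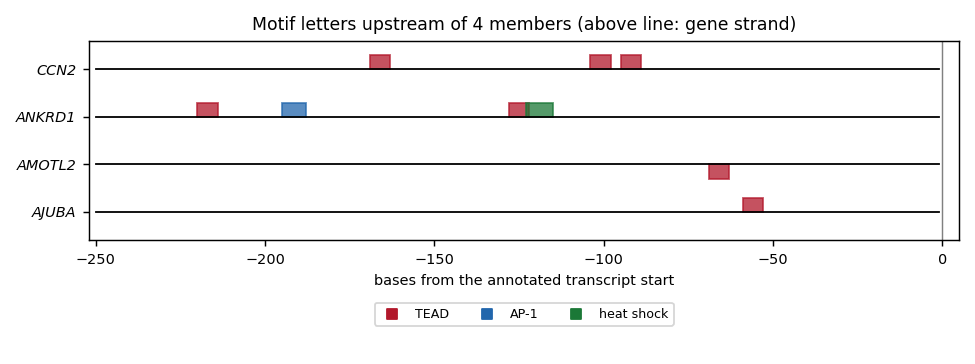
Position of motif letters in the 250 bases before an annotated transcript start of CCN2, ANKRD1, AMOTL2 and AJUBA. The horizontal axis is the distance in bases from the start, and boxes above a line are on the strand of the gene and boxes below it on the opposite strand. CCN2 has 3 TEAD hexamers, ANKRD1 has 2, and AMOTL2 and AJUBA have 1 each.

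Among unexposed cells, most targets were higher in A549, whereas components went both ways. Of the 9 targets, 8 were higher in control A549 than in control 293T and none was lower, with a median log2 fold change of 2.10. Of the 25 components, 10 were higher and 11 lower, with a median of -0.07. Over all 13811 genes tested, 32.4% were higher and 55.9% lower in A549 (limma on log2(FPKM + 1), Benjamini-Hochberg adjustment over all genes tested, adjusted p under 0.05), and the median of all genes was -0.25. That median was -0.41 after rescaling to TPM and -0.15 after quantile normalization. All 34 members passed the filter of at least 0.5 FPKM in at least 3 libraries, but AXL, NT5E and WTIP passed only through A549 and AMOT only through 293T, so for these genes a difference between the lines was built into their passing. Without them, 6 of 7 targets were higher and 0 lower in control A549, with a median of 1.39, and 9 of 23 components were higher and 10 lower, with a median of -0.07.

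AXL, a receptor tyrosine kinase, was at 35.1, 33.0 and 33.9 FPKM in control A549 and at 0.0215, 0.0902 and 0.0697 FPKM in control 293T, where 4 to 17 fragments per library were counted. NT5E, the cell-surface enzyme that makes adenosine from AMP, was at 18.8, 18.7 and 17.6 FPKM in control A549 and 0.198, 0.116 and 0.125 FPKM in control 293T. Both genes were thus near the limit of detection in 293T and expressed in every A549 library. ANKRD1 was 7.61-fold higher in control A549 than in control 293T (log2 fold change 2.10, SE 0.21, limma adjusted p = 5.71e-07), CCN1 5.36-fold (2.18, SE 0.17, adjusted p = 4.23e-08), CRIM1 5.30-fold and CCN2 3.51-fold. F3 was the target that did not pass the threshold, at 1.28 ± 0.185 FPKM in control A549 and 0.938 ± 0.126 FPKM in control 293T (SD, n = 3 each, adjusted p = 0.0545).

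The largest contrast among components was in the angiomotins, junction proteins that bind YAP. AMOT was at 0.0990, 0.109 and 0.438 FPKM in control A549 and at 169, 170 and 168 FPKM in control 293T, the highest level of any member in that line, and 786-fold lower in A549 by the ratio of means. AMOTL1 was 6.08-fold lower in A549. AMOTL2 went the other way, at 18.0 ± 0.447 FPKM in control A549 and 3.32 ± 0.143 FPKM in control 293T. The effectors differed as well. WWTR1, which encodes TAZ, averaged 49.97 ± 4.20 FPKM in control A549 and 5.71 ± 0.140 FPKM in control 293T, an 8.75-fold difference (log2 fold change 2.92, SE 0.06, limma adjusted p = 2.54e-14), whereas YAP1 was 1.56-fold higher in A549. AJUBA, a LIM protein that restrains the LATS kinases, was 6.45-fold higher in control A549 than in control 293T, and LATS1 was 2.54-fold lower. STK3, MOB1B, LIMD1 and TEAD4 did not pass the threshold between the lines.

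**Figure D2:**
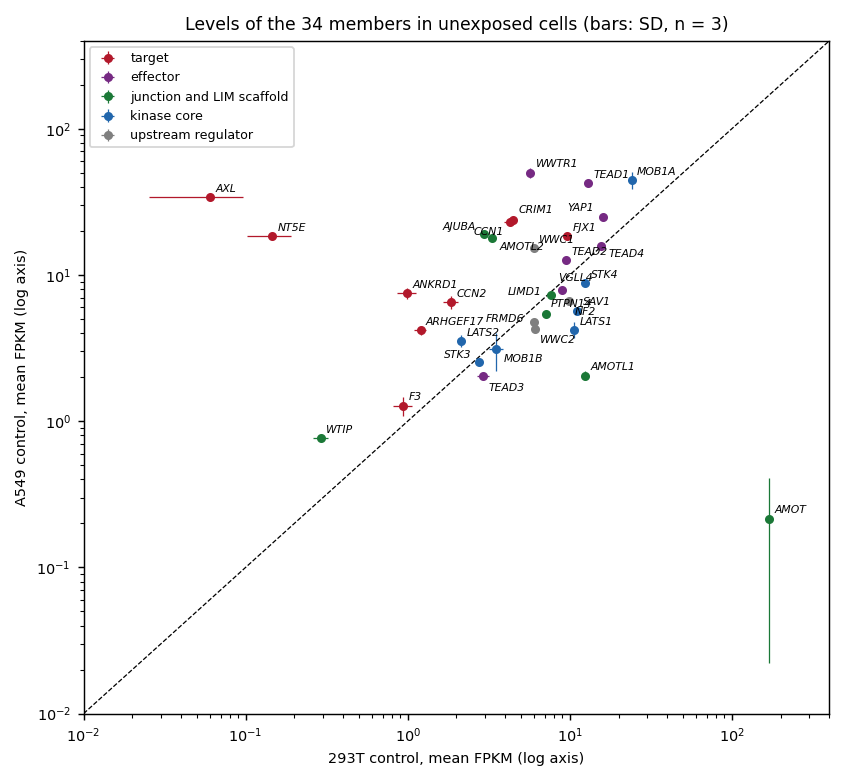
Mean FPKM of the 34 members in control A549 (vertical) against control 293T (horizontal), both on log axes, with bars for the SD over 3 libraries and a dashed line of equal level. Targets such as AXL, NT5E and ANKRD1 lie above the line, and AMOT and AMOTL1 lie far below it.

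The first question of the design was what the field did in A549. CCN1, CCN2 and ANKRD1, the most widely used reporters of YAP and TEAD activity, rose 4.34-fold, 3.15-fold and 4.86-fold, and the components AMOTL2, AJUBA, LATS2 and PTPN14, which are also known as YAP targets, rose 1.42-fold to 1.82-fold. The RNAs of YAP1 and TEAD4 were not called, while WWTR1, TEAD2 and TEAD3 fell. In all, 16 of 34 members were higher and 8 lower in exposed A549, which is 47.1% and 23.5% of the set, beside 13.3% higher and 26.9% lower over all genes tested. The median log2 fold change of the members was 0.14 and that of all genes -0.04. Called or not, 20 of the 34 members (58.8%) lay higher in all exposed than in all control A549 libraries and 9 (26.5%) lay lower in all, beside 17.1% and 32.6% of all genes. With quantile normalization 21 members were higher and 6 lower, beside 2400 and 2786 of all 13811 genes tested. With each library centred on its median 20 members were higher and 6 lower, beside 2695 and 2525 of all genes. Without these steps 1837 of all genes were higher and 3711 lower, so the higher count rose over all genes too.

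In 293T the same question gave a smaller response. FRMD6, SAV1, LATS1, PTPN14, AJUBA, LIMD1, TEAD1, CCN1 and ANKRD1 were higher in exposed 293T, and TEAD2, TEAD3, ARHGEF17 and FJX1 were lower. That is 9 members or 26.5% higher and 4 or 11.8% lower, beside 13.7% higher and 24.2% lower over all genes tested. Called or not, 11 members (32.4%) lay higher in all exposed than in all control 293T libraries and 7 (20.6%) lay lower in all, beside 19.1% and 30.8% of all genes. The median log2 fold change of the members was 0.07 and that of all genes -0.03. The count of higher members rested on single libraries, since it was 4 without replicate 1 and 3 without replicate 2 of exposed 293T, and 4 without any 1 of the 3 control 293T libraries. The lower count was 2 without replicate 1 of exposed 293T. Over all genes the higher calls fell as well, from 1897 to 1436 and 1427 without replicates 1 and 2 of exposed 293T. Without control 293T replicates 1, 2 and 3 they numbered 1443, 1466 and 1556. The lower calls over all genes fell from 3346 to 2629 without replicate 1 of exposed 293T. When FPKM were rescaled without the mitochondrial genes, 5 members were higher and 6 lower, beside 1577 and 3781 of all 13811 genes. With no filter on low values 5 members were higher and 3 lower, beside 1741 and 3222 of all 26348 genes.

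Called in the same direction in both lines were 11 members, of 24 called in A549 and 13 called in 293T, with 7 higher in each line (FRMD6, PTPN14, AJUBA, LIMD1, TEAD1, CCN1 and ANKRD1) and 4 lower in each (TEAD2, TEAD3, ARHGEF17 and FJX1). No member was called in opposite directions. The shares of all genes called in both lines, or in opposite directions, are not given here. The overlap is therefore not read as particular to the members. A further 9 were called higher and 4 lower in A549 and not in 293T, 2 were called higher in 293T and not in A549, and 8 were called in neither line.

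**Figure D3:**
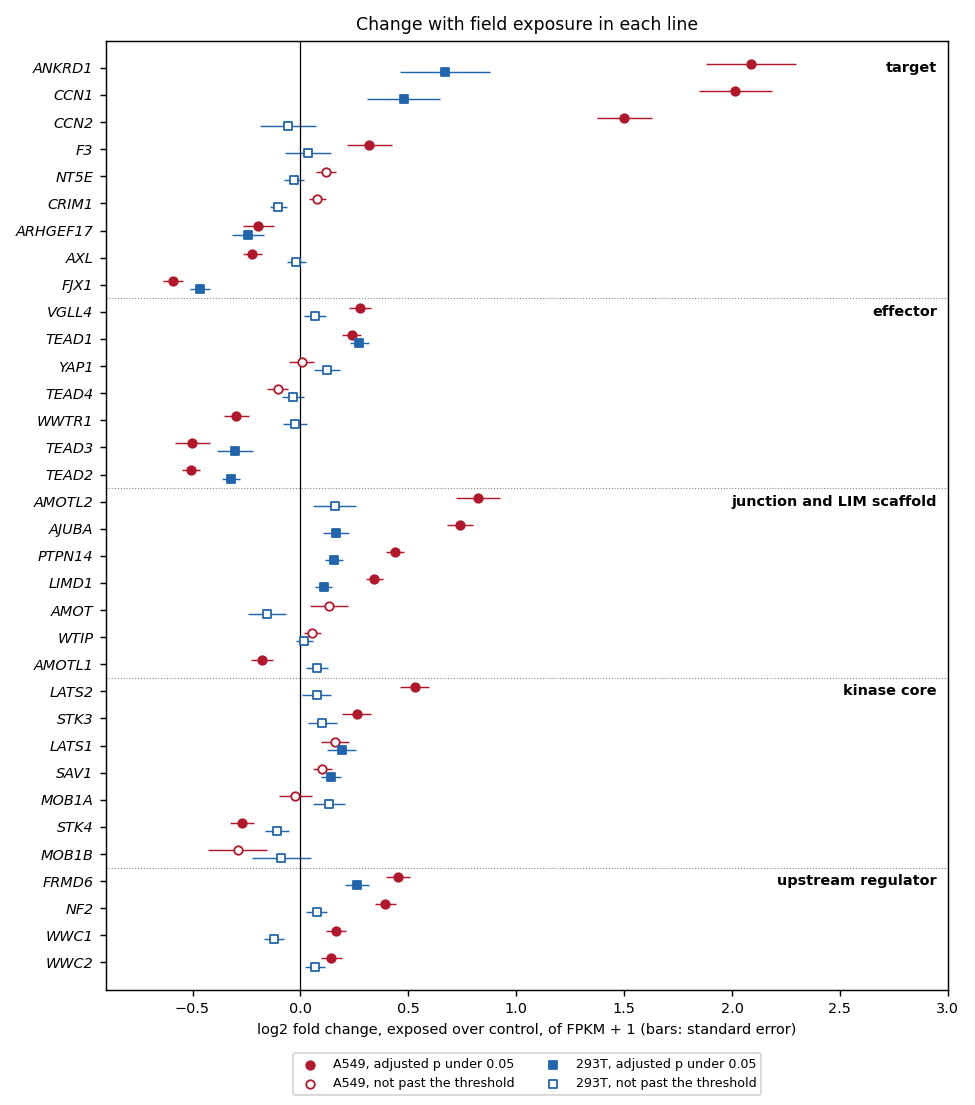
Log2 fold change of FPKM + 1, exposed over control, for the 34 members in A549 (circles) and 293T (squares), grouped by role, with bars for the standard error and filled symbols for adjusted p under 0.05. ANKRD1, CCN1 and CCN2 lie at 2.09, 2.02 and 1.501 in A549, far to the right of every component, and FJX1 lies furthest to the left in both lines.

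Among the targets, CCN1 encodes a secreted matricellular protein and was the most abundant of them in exposed A549. In A549 it was at 72.7, 139 and 85.8 FPKM in its exposed libraries and at 21.7, 24.2 and 22.8 FPKM in control libraries. Replicate 2 was highest, and even the lowest exposed library was far above the controls. The log2 fold change was 2.02 (SE 0.17, limma adjusted p = 5.38e-06). In 293T it was at 6.34, 6.69 and 5.995 FPKM in its exposed libraries and 3.903, 4.34 and 4.57 FPKM in control libraries, again with no overlap, and the log2 fold change was 0.48 (SE 0.17, adjusted p = 0.0411). The 293T call was lost without any 1 of the 6 libraries of that line and without control A549 replicate 2 or 3 (adjusted p up to 0.122), and also with no filter (adjusted p = 0.11) and when recovered counts were tested with limma-voom (adjusted p = 0.272).

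CCN2, its close relative among the matricellular proteins, was at 18.6, 25.4 and 17.4 FPKM in exposed A549 and 7.01, 6.74 and 5.76 FPKM in control A549 (log2 fold change 1.501, SE 0.13, limma adjusted p = 6.31e-06). In 293T it was at 1.90, 1.34 and 2.02 FPKM in its exposed libraries and 1.83, 1.67 and 2.06 FPKM in control libraries (log2 fold change -0.06, SE 0.13, adjusted p = 0.771). The A549 groups were wide apart and the 293T groups overlapped. CCN2 lies on chromosome 6 in GRCh38.p14, and its promoter window holds the 3 hexamers shown above.

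ANKRD1 encodes an ankyrin repeat protein of the nucleus and of the sarcomere in muscle. It was at 32.1, 51.1 and 26.6 FPKM in exposed A549 and 6.81, 8.04 and 7.74 FPKM in control A549 (log2 fold change 2.09, SE 0.21, limma adjusted p = 1.87e-05). In 293T, where it was low, it was at 2.30, 3.02 and 1.38 FPKM in its exposed libraries and 1.05, 0.838 and 1.08 FPKM in control libraries (log2 fold change 0.67, SE 0.21, adjusted p = 0.0245). The groups did not overlap in either line, and replicate 2 was the highest exposed library in both. The 293T call was lost without exposed 293T replicate 1 or 2 or control 293T replicate 1 or 2 (adjusted p up to 0.109), with no filter (adjusted p = 0.0754) and with limma-voom (adjusted p = 0.191).

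Of the other 6 targets, 1 was higher and 3 were lower in exposed A549, and 0 were higher and 2 lower in exposed 293T. Over all genes tested, 13.3% were higher and 26.9% lower in exposed A549, and 13.7% and 24.2% in exposed 293T. FJX1, the human homologue of a Drosophila planar polarity gene, fell in both lines. It was at 12.5, 11.4 and 12.03 FPKM in exposed A549 and 18.5, 17.9 and 19.0 FPKM in control A549 (log2 fold change -0.59, SE 0.04, limma adjusted p = 2.91e-06). In 293T it was at 6.70, 6.61 and 6.68 FPKM in its exposed libraries and 9.04, 9.65 and 10.1 FPKM in control libraries (-0.47, SE 0.04, adjusted p = 3.97e-05). The libraries of each group lay close together and well apart from the other group.

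ARHGEF17 was at 3.48, 3.27 and 3.80 FPKM in exposed A549 and 3.87, 4.21 and 4.43 FPKM in control A549 (log2 fold change -0.20, SE 0.07, limma adjusted p = 0.0488). It was at 0.692, 0.855 and 1.04 FPKM in exposed 293T and 1.09, 1.28 and 1.23 FPKM in control 293T (-0.24, SE 0.07, adjusted p = 0.0199). Neither line's groups overlapped, but the gaps were narrow. The A549 call was lost with 6 of 11 alternatives and 8 of 12 fits without 1 library, namely each but exposed 293T replicates 1 and 3, exposed A549 replicate 3 and control A549 replicate 1 (adjusted p up to 0.163). The 293T call was lost with 2 alternatives and without exposed 293T replicate 1 or 2 or control 293T replicate 2 or 3 (adjusted p up to 0.0866).

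AXL was at 29.0, 29.5 and 28.3 FPKM in exposed A549 and 35.1, 33.0 and 33.9 FPKM in control A549, a 1.17-fold fall without overlap (log2 fold change -0.22, SE 0.04, limma adjusted p = 0.00146), which was not called with a pseudocount of 0.1 (adjusted p = 0.276). In exposed 293T it was at 0.0276, 0.0799 and 0.0317 FPKM, at the same trace level as in control 293T. F3, tissue factor, which starts blood coagulation, averaged 1.84 ± 0.128 FPKM in exposed A549 and 1.28 ± 0.185 FPKM in control A549 (SD, n = 3 each, log2 fold change 0.32, SE 0.11, adjusted p = 0.0299). That call was lost without exposed A549 replicate 1 or 2 or control A549 replicate 1 or 2 (adjusted p up to 0.0931), with no filter and with a pseudocount of 0.1. In 293T F3 was at 1.00 ± 0.357 FPKM in its exposed libraries and 0.938 ± 0.126 FPKM in controls. NT5E and CRIM1, a membrane protein that binds BMP ligands, did not pass the threshold in either line, with log2 fold changes of 0.12 and 0.08 in A549 and -0.03 and -0.10 in 293T. Some alternatives did call them, NT5E higher in A549 with 4 and CRIM1 higher in A549 with 2. CRIM1 was also called lower in 293T with 2 alternatives and without exposed 293T replicate 3.

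**Figure D4:**
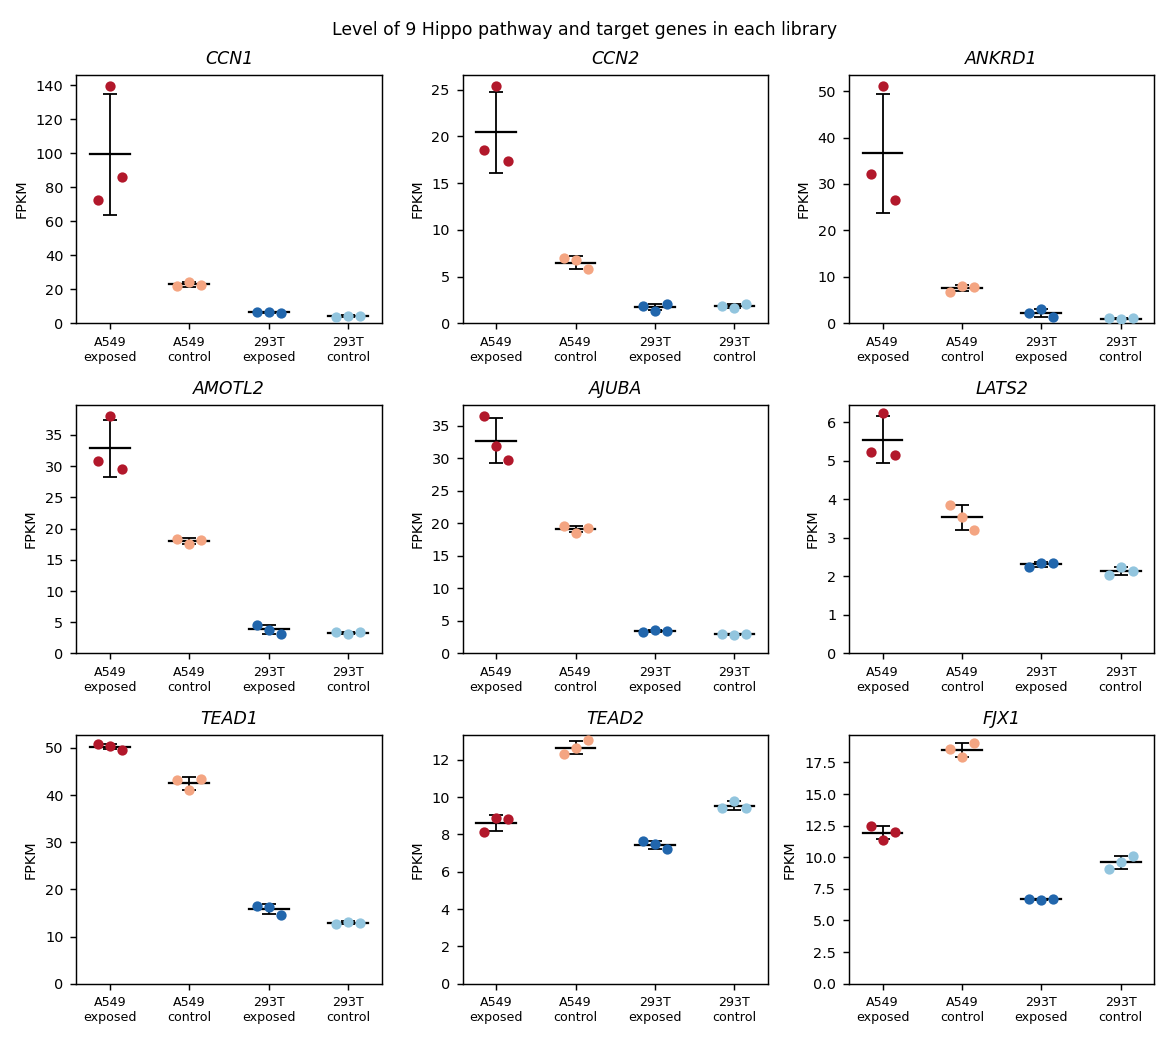
FPKM of 9 members in each of the 12 libraries (points), with the mean and SD of each group of 3 (bars). CCN1, CCN2, ANKRD1, AMOTL2, AJUBA and LATS2 are higher in exposed A549 than in control A549, TEAD1 is higher in exposed cells of both lines, and TEAD2 and FJX1 are lower in exposed cells of both lines.

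Among the effectors, the RNA of YAP itself was called in neither line. YAP1 was at 24.9, 25.2 and 25.2 FPKM in exposed A549 and 26.9, 23.6 and 24.7 FPKM in control A549 (log2 fold change 0.01, SE 0.06, limma adjusted p = 0.97). It was at 19.2, 17.7 and 16.1 FPKM in exposed 293T and 15.6, 15.9 and 16.8 FPKM in control 293T (0.12, SE 0.06, adjusted p = 0.127). The groups overlapped in both lines. Without exposed 293T replicate 3, YAP1 was called higher in 293T (adjusted p = 0.0195). WWTR1 was at 38.4, 40.1 and 42.9 FPKM in exposed A549 and 54.7, 46.7 and 48.5 FPKM in control A549, without overlap (-0.30, SE 0.06, adjusted p = 0.00123). In 293T it was at 5.53, 5.50 and 5.76 FPKM in its exposed libraries and 5.64, 5.61 and 5.87 FPKM in controls, with overlap (-0.02, SE 0.06, adjusted p = 0.776). So the TAZ gene fell in A549, while the same change was not detected in 293T.

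The TEAD genes, which encode the DNA-binding partners of YAP and TAZ, moved in different directions. TEAD1 was at 50.8, 50.4 and 49.6 FPKM in exposed A549 and 43.1, 41.0 and 43.4 FPKM in control A549 (log2 fold change 0.24, SE 0.04, limma adjusted p = 0.00114), and at 16.5, 16.3 and 14.6 FPKM in exposed 293T and 12.6, 13.2 and 13.0 FPKM in control 293T (0.27, SE 0.04, adjusted p = 0.000639). TEAD2 was at 8.15, 8.87 and 8.83 FPKM in exposed A549 and 12.3, 12.6 and 13.0 FPKM in control A549 (-0.51, SE 0.04, adjusted p = 4.90e-06). In 293T, TEAD2 was at 7.63, 7.49 and 7.22 FPKM in its exposed libraries and 9.41, 9.80 and 9.43 FPKM in controls (-0.32, SE 0.04, adjusted p = 0.000182). TEAD1 was thus higher and TEAD2 lower in every exposed library than in every control of the same line.

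TEAD3, the least abundant family member, was at 0.928, 1.13 and 1.39 FPKM in exposed A549 and 2.02, 2.02 and 2.04 FPKM in control A549 (log2 fold change -0.50, SE 0.08, limma adjusted p = 0.000542). In 293T it was at 1.85, 2.26 and 2.41 FPKM in its exposed libraries and 3.18, 2.89 and 2.68 FPKM in controls (-0.30, SE 0.08, adjusted p = 0.0126). Its groups did not overlap in either line, and the 293T call was lost without exposed 293T replicate 1 or control 293T replicate 1 (adjusted p up to 0.0566). TEAD4 averaged 14.6 ± 0.512 FPKM in exposed A549 and 15.8 ± 0.150 FPKM in control A549 (SD, n = 3 each) and was called in neither line. VGLL4, which competes with YAP for the TEAD surface, averaged 9.80 ± 0.507 FPKM in exposed A549 and 7.91 ± 0.155 FPKM in control A549 (0.28, SE 0.05, adjusted p = 0.0012) and was not called in 293T. VGLL4 overlaps ATG7, which reached 3.36 FPKM, and the sources used here do not say whether reads were counted by strand, so its value is uncertain.

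The make-up of the TEAD family therefore shifted while its sum did not move far. The 4 TEAD genes summed to 74.7 ± 0.334 FPKM in exposed A549 and 73.0 ± 1.37 FPKM in control A549, and to 40.7 ± 1.31 FPKM in exposed 293T and 41.0 ± 0.714 FPKM in control 293T (SD, n = 3 each). TEAD1 made up 67.7, 67.6 and 66.7% of that sum in exposed A549 and 58.8, 57.3 and 58.6% in control A549. In 293T its share was 39.2, 40.6 and 36.8% in exposed libraries and 30.2, 32.1 and 32.2% in controls. TEAD2 made up 11.5 ± 0.590% in exposed A549 and 17.3 ± 0.497% in control A549, and 18.3 ± 0.290% in exposed 293T and 23.3 ± 0.683% in control 293T. Exposed and control libraries did not overlap in either share in either line. YAP1 made up 38.3 ± 1.19% of the summed YAP1 and WWTR1 level in exposed A549 and 33.4 ± 0.427% in control A549, without overlap, and 75.9 ± 2.06% in exposed 293T and 73.8 ± 0.327% in control 293T, with overlap.

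**Figure D5:**
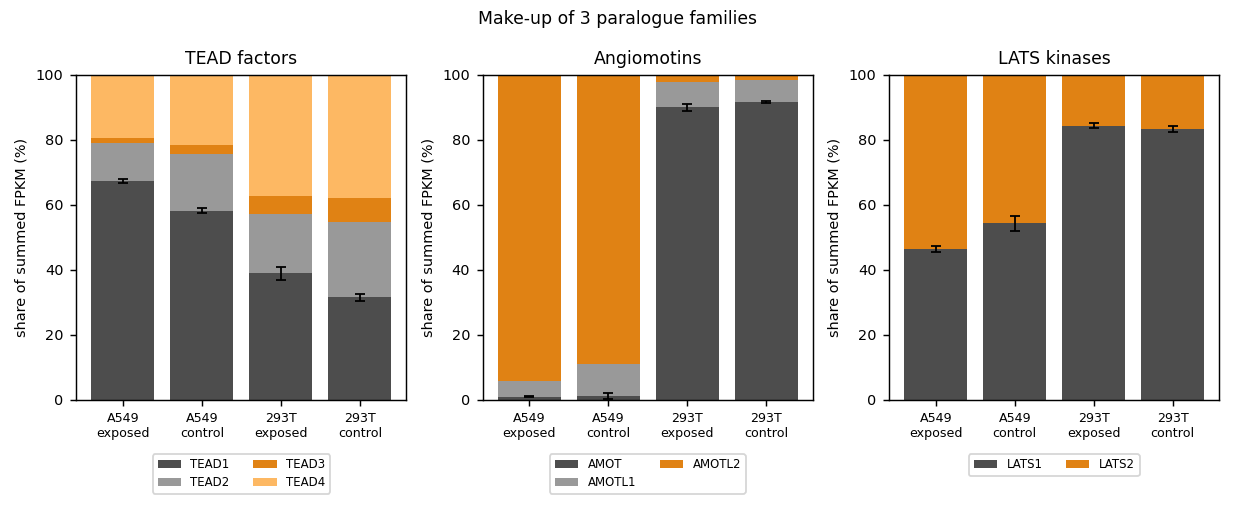
Share of the summed FPKM of a paralogue family, in percent, taken by each gene in the 4 groups, as means of 3 libraries, with the SD drawn for the lowest segment of each bar. TEAD1 takes 67.3% in exposed A549 and 58.2% in control A549, AMOT takes most of the angiomotin sum in 293T and AMOTL2 most of it in A549, and LATS2 takes 53.5% in exposed A549 and 45.7% in control A549.

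The junction and LIM scaffolds held the components that moved most. AMOTL2, an angiomotin that is itself a YAP target, was at 30.8, 38.1 and 29.6 FPKM in exposed A549 and 18.4, 17.5 and 18.1 FPKM in control A549 (log2 fold change 0.82, SE 0.10, limma adjusted p = 7.11e-05). It was at 4.61, 3.77 and 3.19 FPKM in exposed 293T and 3.37, 3.16 and 3.43 FPKM in control 293T (0.16, SE 0.10, adjusted p = 0.239). The A549 groups were clearly separate and the 293T groups overlapped. Without exposed 293T replicate 3, AMOTL2 was called higher in 293T (adjusted p = 0.0497). AJUBA was at 36.5, 31.8 and 29.7 FPKM in exposed A549 and 19.5, 18.6 and 19.2 FPKM in control A549 (0.74, SE 0.06, adjusted p = 4.90e-06), and at 3.37, 3.57 and 3.38 FPKM in exposed 293T and 3.02, 2.87 and 2.99 FPKM in control 293T (0.17, SE 0.06, adjusted p = 0.0475). No AJUBA groups overlapped, but the 293T call was lost in 10 of 12 fits without 1 library, each but exposed A549 replicates 1 and 3 (adjusted p up to 0.142), and with 4 of 11 alternatives.

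PTPN14, a phosphatase that binds YAP and holds it in the cytoplasm, was at 7.84, 7.68 and 7.40 FPKM in exposed A549 and 5.44, 5.37 and 5.34 FPKM in control A549 (log2 fold change 0.44, SE 0.04, limma adjusted p = 1.28e-05). It was at 8.28, 8.25 and 7.53 FPKM in exposed 293T and 7.07, 6.99 and 7.21 FPKM in control 293T (0.16, SE 0.04, adjusted p = 0.0112). LIMD1, a LIM relative of AJUBA, was at 9.68, 9.52 and 9.37 FPKM in exposed A549 and 7.44, 7.39 and 7.07 FPKM in control A549 (0.34, SE 0.04, adjusted p = 3.87e-05). Both genes were higher in every exposed library of both lines, since LIMD1 was at 8.02, 8.34 and 8.56 FPKM in exposed 293T and 7.86, 7.58 and 7.48 FPKM in control 293T (0.11, SE 0.04, adjusted p = 0.0417). That LIMD1 call in 293T was lost without replicate 2 or 3 of exposed or of control 293T and without replicate 2 of exposed or of control A549 (adjusted p up to 0.127), and with 3 alternatives.

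AMOTL1 went against the other scaffolds in A549. It was at 1.76, 1.60 and 1.70 FPKM in exposed A549 and 1.89, 2.18 and 2.07 FPKM in control A549 (log2 fold change -0.18, SE 0.05, limma adjusted p = 0.0144), and at 13.0, 13.8 and 12.7 FPKM in exposed 293T and 13.1, 12.1 and 12.1 FPKM in control 293T (0.08, SE 0.05, adjusted p = 0.266). The groups were separate in A549 and overlapped in 293T. The A549 call was lost without exposed or control A549 replicate 2 (adjusted p up to 0.0587), with quantile normalization (adjusted p = 0.18) and with centring on the median (adjusted p = 0.103). AMOT, at 143, 148 and 166 FPKM in exposed 293T and 169, 170 and 168 FPKM in control 293T, was not called (-0.15, SE 0.09, adjusted p = 0.193), nor was it in A549, where it was at most 0.438 FPKM. Its 293T groups did not overlap. It was called lower in 293T with limma-voom (adjusted p = 0.0223) and without control A549 replicate 3 (adjusted p = 0.0366). That library held the 0.438 FPKM, against 0.0990 and 0.109 FPKM in the other A549 controls. Without it, AMOT was also called higher in A549 (adjusted p = 0.00562) and for the difference between the lines (adjusted p = 0.00946). All A549 values of AMOT were low, at 31 to 137 fragments per library. AMOTL2 made up 94.2 ± 0.878% of the angiomotin sum in exposed A549 and 88.8 ± 1.23% in control A549, whereas AMOT made up 89.9 ± 1.197% in exposed 293T and 91.5 ± 0.343% in control 293T. WTIP, the least abundant LIM member, was called in neither line and had log2 fold changes of 0.06 in A549 and 0.02 in 293T.

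In the kinase core, 2 of 7 members were higher and 1 lower in exposed A549, and 2 were higher and 0 lower in exposed 293T. That is 28.6% higher and 14.3% lower in A549 and 28.6% higher in 293T, beside 13.3%, 26.9% and 13.7% of all genes. LATS2, the LATS kinase known as a YAP target, was at 5.24, 6.24 and 5.15 FPKM in exposed A549 and 3.85, 3.54 and 3.19 FPKM in control A549 (log2 fold change 0.53, SE 0.07, limma adjusted p = 9.96e-05), and at 2.24, 2.34 and 2.35 FPKM in exposed 293T and 2.05, 2.25 and 2.14 FPKM in control 293T (0.07, SE 0.07, adjusted p = 0.427). It was higher in every exposed A549 library, while the 293T groups overlapped. LATS1 averaged 4.80 ± 0.367 FPKM in exposed A549 and 4.21 ± 0.524 FPKM in control A549, with overlap, and 12.3 ± 0.394 FPKM in exposed 293T and 10.7 ± 0.140 FPKM in control 293T (SD, n = 3 each, adjusted p = 0.0729 in A549 and 0.0374 in 293T). The LATS1 call in 293T was lost without exposed 293T replicate 1 or 2 or any 1 of the control 293T libraries (adjusted p up to 0.116) and with 4 alternatives. In A549, LATS1 was called higher with 3 alternatives and without control A549 replicate 1. LATS2 thus took 53.5, 54.5 and 52.6% of the LATS sum in exposed A549 and 44.6, 48.3 and 44.1% in control A549.

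The MST kinases moved in opposite directions in A549. STK3 averaged 3.27 ± 0.238 FPKM in exposed A549 and 2.56 ± 0.0517 FPKM in control A549 (SD, n = 3 each, log2 fold change 0.26, SE 0.07, limma adjusted p = 0.00844), and STK4 averaged 7.11 ± 0.442 FPKM in exposed A549 and 8.78 ± 0.320 FPKM in control A549 (-0.27, SE 0.06, adjusted p = 0.00253). Neither was called in 293T, where the log2 fold changes were 0.10 for STK3 and -0.11 for STK4. Without exposed 293T replicate 3, STK3 was called higher (adjusted p = 0.0199) and STK4 lower (adjusted p = 0.0293) in 293T. SAV1, the scaffold of the MST kinases, averaged 12.4 ± 0.385 FPKM in exposed 293T and 11.1 ± 0.323 FPKM in control 293T (0.14, SE 0.05, adjusted p = 0.0292), a call lost without replicate 1 or 2 of exposed 293T or replicate 1 or 3 of control 293T (adjusted p up to 0.105) and without the mitochondrial genes (adjusted p = 0.0527). SAV1 was not called in A549 (0.10, adjusted p = 0.0987), but was called higher there with quantile normalization, with centring and without exposed A549 replicate 3. MOB1A and MOB1B were called in neither line. MOB1B was called lower in A549 without control A549 replicate 2 (adjusted p = 0.0278). MOB1A was called higher in 293T without control A549 replicate 1 (adjusted p = 0.0420), and its 293T groups did not overlap. These MOB1 genes are close paralogues, and the sources used here do not say how reads they share were counted.

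All 4 upstream regulators were higher in exposed A549, as were 13.3% of all genes, but of the 4 only NF2 and FRMD6 were called there under every alternative and without any 1 library. NF2 was at 9.88, 8.81 and 8.46 FPKM in exposed A549 and 6.53, 6.73 and 6.65 FPKM in control A549 (log2 fold change 0.39, SE 0.05, limma adjusted p = 7.92e-05), and at 10.5, 10.5 and 10.6 FPKM in exposed 293T and 10.3, 9.57 and 10.02 FPKM in control 293T (0.08, SE 0.05, adjusted p = 0.253). FRMD6 was at 6.85, 7.69 and 6.35 FPKM in exposed A549 and 4.62, 4.94 and 4.85 FPKM in control A549 (0.45, SE 0.06, adjusted p = 7.84e-05). NF2 and FRMD6 both separated the A549 groups by a wide gap. In 293T, FRMD6 was at 7.63, 7.45 and 7.19 FPKM in its exposed libraries and 6.25, 5.91 and 5.93 FPKM in controls, also without overlap (0.26, SE 0.06, adjusted p = 0.00352).

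The rises of the WWC genes were small. WWC1 was at 18.5, 16.8 and 16.2 FPKM in exposed A549 and 14.7, 15.6 and 15.4 FPKM in control A549 (log2 fold change 0.17, SE 0.05, limma adjusted p = 0.0141), and at 5.42, 5.45 and 5.40 FPKM in exposed 293T and 5.88, 6.20 and 5.90 FPKM in control 293T (-0.12, SE 0.05, adjusted p = 0.0587). The groups did not overlap in either line and lay in opposite order. The A549 call of WWC1 was lost without exposed or control A549 replicate 1 (adjusted p up to 0.0600) and with each line fitted alone (adjusted p = 0.0548). WWC2, a paralogue of KIBRA, averaged 4.83 ± 0.112 FPKM in exposed A549 and 4.28 ± 0.298 FPKM in control A549 (SD, n = 3 each, 0.14, SE 0.05, adjusted p = 0.0309) and was not called in 293T. That call was lost without any 1 of the exposed A549 libraries or control A549 replicate 2 or 3 (adjusted p up to 0.122), with each line fitted alone and without the mitochondrial genes.

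Whether the response differed between the lines was tested directly, as the effect in A549 minus that in 293T. It was higher in A549 for 10 members and lower for 3, or 29.4% and 8.82% of the set, beside 5.51% higher and 7.03% lower over all genes tested. The 10 were the reporters CCN2 (difference 1.56, SE 0.18, limma adjusted p = 0.00051), CCN1 (1.54, SE 0.24, adjusted p = 0.00197) and ANKRD1 (1.42, SE 0.30, adjusted p = 0.00948), the scaffolds AMOTL2 (0.66), AJUBA (0.57), PTPN14 (0.28) and LIMD1 (0.24), the kinase LATS2 (0.46), and the upstream regulators NF2 (0.32) and WWC1 (0.29). The ANKRD1 difference was not called with a pseudocount of 0.1 (adjusted p = 0.0683) or with limma-voom (adjusted p = 0.359). The lower ones were WWTR1 (-0.27, adjusted p = 0.0418), AMOTL1 (-0.26, adjusted p = 0.0376) and AXL (-0.20, adjusted p = 0.0467).

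Those 3 lower calls were weak. Without exposed 293T replicate 3 the count of lower calls stayed at 3, but WWTR1 was lost and TEAD2 was newly called. The count was 1 without control 293T replicate 1, exposed A549 replicate 1 or 3 or control A549 replicate 1 or 2. Lower calls over all genes numbered 685, 702, 1029, 722 and 817 in these fits, in the same order, against 971 with every library. The count of members was 0 without exposed 293T replicate 1 or 2, control 293T replicate 2 or 3, exposed A549 replicate 2 or control A549 replicate 3. Over all genes the lower calls there were 765, 688, 632, 676, 704 and 643 in the same order, so they fell too. The counts were 11 higher and 1 lower with centring on the median and 10 higher and 1 lower after rescaling to TPM. Over all genes they were 967 higher and 765 lower with centring and 666 and 765 after rescaling to TPM, against 761 and 971 without these steps. AXL was near 0 in 293T, so a fall could not have been detected there. The lines also started from different levels, and a change of low values comes out too small on the log2(FPKM + 1) scale, which touches CCN2 and ANKRD1 in 293T. As a fold of mean FPKM, ANKRD1 was 4.86-fold higher in exposed A549 and 2.25-fold higher in exposed 293T than in the controls of each line.

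Components and targets were then set against each other. In A549 the median log2 fold change was 0.12 over the 9 targets and 0.14 over the 25 components, a difference of -0.02, with 4 targets higher and 3 lower and 12 components higher and 5 lower. In 293T the medians were -0.03 for targets and 0.08 for components, a difference of -0.11, with 2 targets higher and 2 lower and 7 components higher and 2 lower. The median of all genes was -0.04 in A549 and -0.03 in 293T. As shares, 44.4% of targets and 48% of components were higher in exposed A549, beside 13.3% of all genes. Lower there were 33.3% of targets and 20% of components, beside 26.9% of all genes. In 293T 22.2% of targets and 28% of components were higher, beside 13.7% of all genes. Lower in 293T were 22.2% of targets and 8% of components, beside 24.2% of all genes. The targets were spread more widely, between -0.59 and 2.09 in A549, where the components lay between -0.51 and 0.82. Without 1 library the difference of medians ranged from -0.0507 to 0.0321 in A549, so its sign depended on single libraries there.

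The comparison depends on where the components also known as YAP and TEAD targets are placed. These are AJUBA, AMOTL2, LATS2 and PTPN14, and 4 of 4 were higher in exposed A549, with a median of 0.63. Of the 21 other components, 8 (38.1%) were higher there, with a median of 0.10, beside 13.3% higher over all genes. Roles were assigned with earlier results of these data known, so this contrast is a description. Counted as targets, they made 8 of 13 targets higher in exposed A549 and moved the median of targets to 0.44, against 0.10 for the remaining components. In 293T the medians became 0.03 for targets and 0.07 for components. All 4 were also among the 10 members with a higher effect in A549 than in 293T.

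Among the members called higher, single exposed libraries differed in level. The same counts over all genes are not given here, so the pattern is not read as particular to the members. Of the 16 members higher in exposed A549, replicate 2 was the highest exposed library for 8, replicate 1 for 7 and replicate 3 for 1, and replicate 3 was the lowest for 12. Of the 9 members higher in exposed 293T, replicate 1 was highest for 5, replicate 2 for 3 and replicate 3 for 1, and replicate 3 was lowest for 7. CCN1, CCN2, ANKRD1, AMOTL2 and LATS2 all peaked in replicate 2 of exposed A549. The sources used here name no sequencing batch or date, so no value within batches could be had.

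Other genes of the pathway and its neighbours were read against the shares of all genes, which were 13.3% higher and 26.9% lower in exposed A549 and 13.7% higher and 24.2% lower in exposed 293T. Of 10 further YAP targets, 3 (30%) were higher and 2 (20%) lower in exposed A549, and 2 (20%) were higher and 1 (10%) lower in exposed 293T. NUAK2, a kinase induced by YAP, rose in A549 to 29.2 ± 2.31 FPKM, against 20.1 ± 1.29 FPKM in controls (SD, n = 3 each, log2 fold change 0.52, limma adjusted p = 0.000101), and the growth factor TGFB2 to 18.9 ± 0.915 FPKM, against 14.8 ± 0.436 FPKM (0.33, adjusted p = 0.00011). GADD45A, a stress-inducible growth arrest gene, was lower in exposed A549 (-0.35, adjusted p = 0.00127) and higher in exposed 293T (0.24, adjusted p = 0.0118).

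STRIPAK, a phosphatase complex that switches off the MST kinases, had 17 of 18 listed genes tested, with 3 (17.6%) higher and 5 (29.4%) lower in exposed A549 and 3 higher and 3 lower (17.6% each) in exposed 293T, close to the shares of all genes. STRIP2 fell by 0.39 on the log2 scale in A549 (limma adjusted p = 0.000138), and the catalytic subunit PPP2CB rose in A549 (0.39, adjusted p = 0.000155) and in 293T (0.29, adjusted p = 0.00153).

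Kinases that act in parallel to MST and the polarity proteins had 20 of 22 genes tested, with 1 (5%) higher and 7 (35%) lower in exposed A549 and 1 (5%) higher and 4 (20%) lower in exposed 293T. MINK1, a kinase that can activate LATS, fell by 0.34 in A549 (limma adjusted p = 0.000107) and by 0.31 in 293T (adjusted p = 0.000332) on the log2 scale. The polarity gene SCRIB fell by 0.19 and 0.21 in A549 and 293T, and LLGL1 by 0.22 and 0.14.

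The list of SRF and its cytoskeletal targets, which leaves out CCN1 and CCN2 although SRF is also known to induce them, had 18 of 20 genes tested, with 5 (27.8%) higher and 6 (33.3%) lower in exposed A549 and 2 (11.1%) higher and 6 (33.3%) lower in exposed 293T. TUFT1 rose in A549 (log2 fold change 0.58, limma adjusted p = 1.7e-05) and was not called in 293T. The tropomyosin gene TPM1 rose in A549 (0.32, adjusted p = 5.7e-05) and in 293T (0.15, adjusted p = 0.0092). ACTG1, a cytoplasmic actin, was at 1743 ± 15.6 FPKM in exposed A549 and 1874 ± 17.5 FPKM in control A549, and at 939 ± 16.4 FPKM in exposed 293T and 1190 ± 8.84 FPKM in control 293T (SD, n = 3 each), a fall past the threshold in both lines. Actin genes have many processed pseudogenes, so the split of their reads is uncertain.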

How the data were processed

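The authors deposited 1 table of FPKM values, per the file headers, with 3 replicate columns for each of the 4 samples. Per the labels' protocols, total RNA was taken with TRIzol, treated with DNase, selected on oligo(dT) beads and primed with random hexamers for paired-end sequencing. The tools were HISAT2, HTSeq and fastp and the genome build GRCh38, per the submitters' processing notes. Their versions and settings, and any use of strand, are not given in the sources used here.

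A gene was tested where 3 or more of the 12 libraries reached 0.5 FPKM, so 13811 genes entered and 12537 did not. A single limma model (limma 3.58.1 in R 4.3.3) on log2(FPKM + 1) had a mean for each group, an intensity trend in the variance and 8 residual degrees of freedom. Tests were two-sided, with Benjamini-Hochberg adjustment over all genes tested and a threshold of 0.05. Compared were exposed and control cells of each line, the effects of the lines with each other, and the unexposed lines. Changes of low genes come out too small on this scale, and ratios given as fold are of mean FPKM. Lists are described by counts and medians. Whole counts were recovered for 100% of the genes within 0.01 counts and served for depth and for limma-voom as an alternative. The test was checked on simulated data.

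The members, roles and further lists were chosen with earlier results of these data known. All members could be named, those called in both lines or for the difference with every library, and up to 3 genes of each further list by smallest adjusted p. One gene picked this way is not reported here. Alternatives were other pseudocounts, filters, scalings, variance models, a replicate block, limma-voom and leaving out each library in turn. Promoter windows and positions came from RefSeq tables (GRCh38.p14), handled in Python 3.11.15 with numpy 2.4.6 and pandas 2.3.3. Of the members, 34 matched RefSeq, and 11 overlap another listed gene, 1 of them, VGLL4, with a partner at 1 FPKM or more.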

Additional observations from a re-analysis of the deposited data

Results flagged for a closer look

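The effect of the field differed between the lines for 13 members, by the interaction test in limma with Benjamini-Hochberg adjustment over all genes, and these are the results that call for a closer look. On the log2(FPKM + 1) scale, the effect in A549 minus that in 293T was 1.56 for CCN2, 1.54 for CCN1 and 1.42 for ANKRD1. Among components it was 0.66 for AMOTL2, 0.57 for AJUBA, 0.46 for LATS2, 0.32 for NF2, 0.29 for WWC1, 0.28 for PTPN14 and 0.24 for LIMD1. It was below 0 for WWTR1 (-0.27), AMOTL1 (-0.26) and AXL (-0.20). Of the 13, CCN2, CCN1, AMOTL2, AJUBA, LATS2, NF2, WWC1, PTPN14 and LIMD1 were called under all 10 alternatives that give a difference between lines and in all 12 fits without 1 library.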

How the results depend on the processing

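Of the 24 members called in A549, 18 were called under all 11 alternatives and in all 12 fits without 1 library. The same held for 5 of 13 in 293T (FRMD6, PTPN14, TEAD1, TEAD2 and FJX1). Between the lines, where fitting each line alone gives no value and 10 alternatives remain, it held for 9 of 13 for the difference of effects and 28 of 29 for the controls, where VGLL4 was lost without control 293T replicate 3 (adjusted p = 0.0564), with quantile normalization and with centring. The shares of all genes called under every setting are not given here, so these counts are not read as particular to the members. In 293T the higher members numbered 5 with no filter on low values and 5 when rescaled without the mitochondrial genes. Over all genes the higher calls there numbered 1741 and 1577. The members whose effect in A549 lay below that in 293T numbered 1 with a pseudocount of 0.1, 0 with no filter, 1 with centring on the median, 1 after rescaling to TPM and 1 with limma-voom. Over all genes these counts were 674, 767, 765, 765 and 696 in the same order, against 971 without these changes. AXL changed sign with limma-voom (0.0736, adjusted p = 0.959). The cause was not tested.

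The same-numbered libraries of a line did not deviate together (correlations of -0.141 to 0.000139), so the numbers do not pair them. With the replicate number as a block, the members higher and lower numbered 16 and 8 in A549, 8 and 4 in 293T, 19 and 11 for the controls, and 10 and 0 for the difference between the lines. Over all genes the block gave 1782 and 3653 in A549 and 1814 and 3301 in 293T. It gave 4479 and 7711 for the controls and 712 and 873 for the difference.

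Targets minus components, as medians, came to 0.334 in A549 with the 4 components also known as targets counted as targets. In 293T this difference was -0.207 with a pseudocount of 0.1, -0.210 with limma-voom and -0.0332 with those 4 genes counted as targets.

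Without 1 library each in turn, higher and lower members numbered 13 to 16 and 6 to 8 in A549, 3 to 9 and 2 to 6 in 293T, 10 to 12 and 0 to 3 for the difference, and 18 to 19 and 10 to 12 for the controls. Over all genes these fits gave 1507 to 1890 and 2993 to 3832 in A549 and 1427 to 1953 and 2501 to 3515 in 293T. They gave 525 to 1002 and 632 to 1029 for the difference, and 4319 to 4508 and 7489 to 7727 for the controls. The difference of medians ran from -0.0507 to 0.0321 in A549 and from -0.190 to -0.0639 in 293T. Depth was even between libraries. Few fragments were counted for AXL (4 to 17) and NT5E (12 to 27) in 293T and for AMOT (31 to 137) in A549.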
